A study of Yarrowia lipolytica with 12 samples.

Results

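The comparison described here is that of *Yarrowia lipolytica* cells labelled as lacking Yl*REP1* with wild-type cells, both carrying the same 4NAG plasmid and both grown on *N*-acetylglucosamine (GlcNAc). All 6400 genes listed in the count tables entered it, from 6 of the 12 libraries of the series: 3 labelled Yl*rep1*Δ with 4NAG and 3 labelled wild type with 4NAG. The members are thus every gene, joined by its identifier, with a gene missing from a table taken as 0, and 6041 of them passed the filter on low counts and were tested. The wild type is the strain PO1a, a strain with mutant *leu2* and *ura3* alleles; the mutant was made from it by deleting Yl*REP1* and then looping out the marker. The 4NAG plasmid is a centromeric plasmid with Yl*LEU2* that expresses the transporter gene Yl*NGT1* and the kinase, deacetylase and deaminase genes Yl*NAG5*, Yl*DAC1* and Yl*NAG1* from the Yl*ACT1* promoter. Every culture was grown in liquid GlcNAc medium with uracil. Wild-type cells with the empty vector (3 libraries) are given below as a background that the test did not use.

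*Y. lipolytica* is a yeast that can switch to filamentous growth and that lives readily on fats, alkanes and organic acids. YlRep1 belongs to the Ndt80 family of transcription factors; its ortholog in *Candida albicans* is needed for the induction of the genes that take up and break down GlcNAc. The plasmid expresses a set of those genes from a promoter that does not depend on GlcNAc. The mutant with 4NAG grew more slowly in this medium than the wild type, as the study states, so that a direct effect of the deletion and an effect of slower growth cannot be told apart. In a culture that can hold yeast-form and filamentous cells, fewer cells of a form and less RNA per cell cannot be told apart either. Whether the samples within a group were grown separately is not stated. The p-values therefore weigh each difference against the spread among these samples, and that spread may be technical.

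The deleted gene was counted first. Yl*REP1* (YALI0D24860) had 76.9, 81.4 and 89.8 CPM (counts scaled to a common library size, counts per 1e+06, by TMM) in wild-type replicates 1, 2 and 3 with 4NAG, and 21.8, 11.6 and 68.2 CPM in the libraries labelled Yl*rep1*Δ replicates 1, 2 and 3. Against the wild-type mean these were 26.4% (95% exact Poisson interval 23.8 to 29.2), 14.0% (12.4 to 15.8) and 82.5% (77.7 to 87.5), and the intervals cover counting error only. Replicate 3 therefore held most of the wild-type level of the gene that its label says was deleted. Replicates 1 and 2 were not free of it either, with 383 and 278 raw counts. Leaving out replicate 3 therefore does not leave only libraries without counts of this gene. Tested by edgeR's quasi-likelihood method, the fitted log2 fold change was −1.30 with a standard error (SE) of 0.58 and an adjusted p of 0.222, and it was −2.34 (adjusted p = 0.00584) without replicate 3. Every direction below rests on these labels. Counts are given with and without replicate 3, and fold changes without it are given for some of the named genes.

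Other genes of GlcNAc use were then compared. *GIG1* (YALI0F04466), a GlcNAc-induced gene, had 271, 255 and 253 CPM in the wild type and 83.9, 52.8 and 226 CPM in the libraries labelled Yl*rep1*Δ; its log2 fold change was −1.11 (adjusted p = 0.217) with all libraries and −1.96 (adjusted p = 0.00419) without replicate 3. Yl*NGS1* (YALI0E20185), the GlcNAc sensor and acetyltransferase, had 71.2, 73.0 and 73.6 CPM in the wild type and 46.4, 52.0 and 69.3 CPM in the Yl*rep1*Δ-labelled libraries. Replicate 3 was the nearest to the wild type in both genes. Yl*DAC1* (YALI0E20163) and Yl*NAG5* (YALI0E20207) are also carried by the plasmid, so their counts hold reads from 2 sources. Yl*DAC1* had 644, 825 and 1404 CPM against 1270.2 to 1421 CPM (log2 fold change −0.48, adjusted p = 0.334), with replicate 3 inside the wild-type range. Yl*NAG5* had 1192, 1577 and 1329 CPM against 837 to 868 CPM (log2 fold change 0.66, adjusted p = 0.0582), with replicate 1 nearest to the wild type.

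The libraries held between 15667204 and 22321047 counts. Across the genes tested the wild-type libraries with 4NAG stood 0.197 to 0.200 apart (root mean square difference of log2(CPM + 1)), while the libraries labelled Yl*rep1*Δ stood 0.546 to 0.619 apart. Replicates 2 and 3 were the nearest pair (0.546), replicates 1 and 2 stood 0.58 apart, and replicates 1 and 3 were the farthest (0.619). By this measure replicates 1 and 2 were thus not a close pair. Measured from the wild-type mean, replicates 1, 2 and 3 lay at 0.594, 0.733 and 0.436, and 431, 723 and 214 genes had moved at least 2-fold in them on the same scale. The vector libraries lay at 0.197 to 0.233 from the same mean, with 6 to 14 genes moved that far. Replicate 2 was thus the most distant library and had the lowest Yl*REP1*, and replicate 3 was the least distant and had the highest. The biological coefficient of variation was 0.296 in the Yl*rep1*Δ-labelled group and 0.0690 in the wild type with 4NAG. Libraries labelled Yl*ngs1*Δ with 4NAG were also compared. Yl*rep1*Δ-labelled replicate 1 lay 0.24 and 0.3 from Yl*ngs1*Δ replicates 2 and 3, and 0.63 from replicate 1. Replicate 2 lay 0.267 from Yl*ngs1*Δ replicate 1, and 0.548 and 0.682 from replicates 2 and 3. Replicate 3 lay 0.636 to 0.695 from all of them. Replicates 1 and 2 each thus had a nearer library under the other label than within their own group. The cause was not tested.

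With the adjusted p below 0.05 and a change of 2-fold or more, 64 genes were higher and 20 were lower in the libraries labelled Yl*rep1*Δ, which is 1.06% and 0.331% of the genes tested. With an unadjusted p at the same fold, 4.04% were higher and 1.82% lower. The 3 Yl*rep1*Δ-labelled libraries lay wholly above the 3 wild-type libraries in 16.9% of the genes tested, and wholly below in 15.7%. The vector libraries took no part in the test, but they lay only 0.197 to 0.233 from the wild-type mean. The called genes were also picked on the same Yl*rep1*Δ-labelled libraries. The next counts are therefore not independent support, and the matching share over all genes tested was not counted. In the vector libraries all 64 higher genes were below every Yl*rep1*Δ-labelled library. There, 19 of the 20 lower genes were above every Yl*rep1*Δ-labelled library. The exception was the sterol desaturase gene Yl*ERG3* (YALI0D20878), which had 429, 523 and 524 CPM in the wild type with 4NAG, 203, 224 and 302 CPM in the Yl*rep1*Δ-labelled libraries and 280.2, 335 and 296 CPM with the vector.

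How far the calls rest on single libraries was examined by leaving out each in turn. Without Yl*rep1*Δ-labelled replicate 3, 269 genes were higher and 163 lower, 4.43% and 2.68% of the 6077 genes then tested. Without replicate 1 the counts were 150 and 144, and without replicate 2 they were 37 and 10. Of the 84 called genes, 82 were still called without replicate 3, 79 without replicate 1 and 37 without replicate 2. The 2 lost without replicate 3, YALI0E05665 and YALI0F31581, had log2 fold changes of 0.99 and 0.98 there, just under the fold threshold. When any wild-type replicate was dropped, only 1 call remained and none was lower (0); that gene was YALI0B01342, similar to a high-affinity glucose transporter of *Kluyveromyces lactis*, and it was called in all 6 of these fits. At an unadjusted p, or by DESeq2 or limma, the counts were larger, as given under the dependence on processing.

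**Figure D1:**
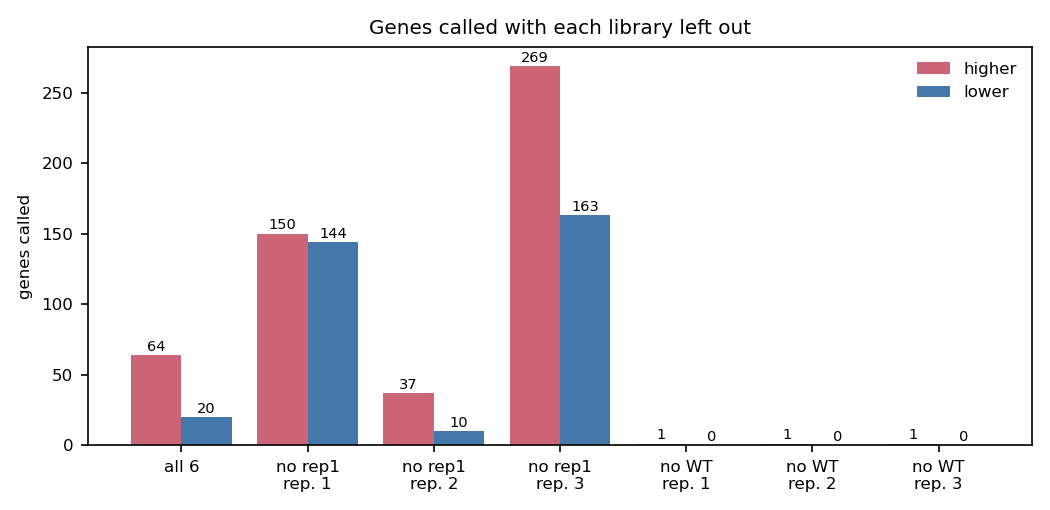
Genes called higher (red) and lower (blue) in the libraries labelled Yl*rep1*Δ against wild type with 4NAG, with all 6 libraries and with each library left out (x axis); the y axis counts genes at an adjusted p under 0.05 and at least 2-fold. The bars are at 64 and 20 with all libraries, at 269 and 163 without Yl*rep1*Δ-labelled replicate 3, and at 1 and 0 without any of the wild-type replicates.

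Each Yl*rep1*Δ-labelled library contributed unequally to the called genes. Among the 64 higher genes, replicate 2 was the highest of the 3 libraries in 46 (71.9%), replicate 1 in 14 and replicate 3 in 4, while replicate 3 was the lowest in 52 (81.2%). Their median change from the wild-type mean was 1.91, 2.42 and 1.38 on the log2 scale in replicates 1, 2 and 3. Among the 20 lower genes the medians were −1.74, −1.77 and −1.21, and replicate 3 was nearest to the wild type in 17 (85.0%). Over all genes tested, replicate 2 was the highest in 38.0% and replicate 3 the lowest in 35.7%. These values describe genes that were called from the same libraries and are not a test.

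**Figure D2:**
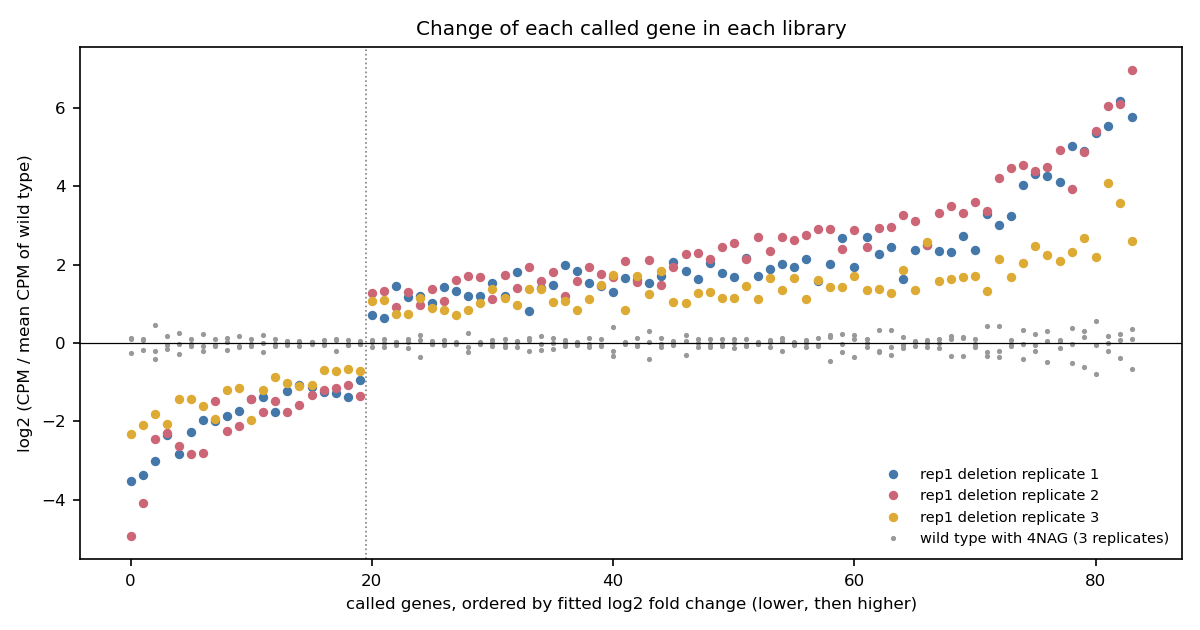
The 84 called genes in order of fitted log2 fold change (x axis) and their log2 ratio to the wild-type mean CPM (y axis) in each library labelled Yl*rep1*Δ (blue, red and yellow for replicates 1, 2 and 3) and in the 3 wild-type libraries (grey). Replicate 3 has the smallest change of the 3 Yl*rep1*Δ-labelled libraries in most genes, with medians of 1.38 among the higher and −1.21 among the lower genes, and no called gene has a replicate on the other side of the wild type.

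The change in replicate 3 was set against the mean change in replicates 1 and 2. This ratio had a median of 0.591 (range 0.397 to 1.16) over the 64 higher genes and 0.613 (0.522 to 1.38) over the 20 lower genes. It was over 0.8 in 11 higher and 5 lower genes and under 0.5 in 12 higher and 0 lower genes. These genes were called from the same 3 libraries. The same ratio was taken for each library over the genes called without it. Such genes were chosen for their change in the other libraries, so a ratio under 1 says little by itself, and the 3 libraries are set side by side. For genes called higher the median was 0.906 for replicate 1 (149 genes), 1.52 for replicate 2 (37 genes) and 0.471 for replicate 3 (266 genes). For genes called lower it was −0.000262 for replicate 1 (142 genes, of which 71 moved the other way), 1.34 for replicate 2 (10 genes) and 0.317 for replicate 3 (161 genes, of which 29 moved the other way). Replicate 3 thus had the lowest ratio among higher genes and replicate 1 among lower genes.

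**Figure D3:**
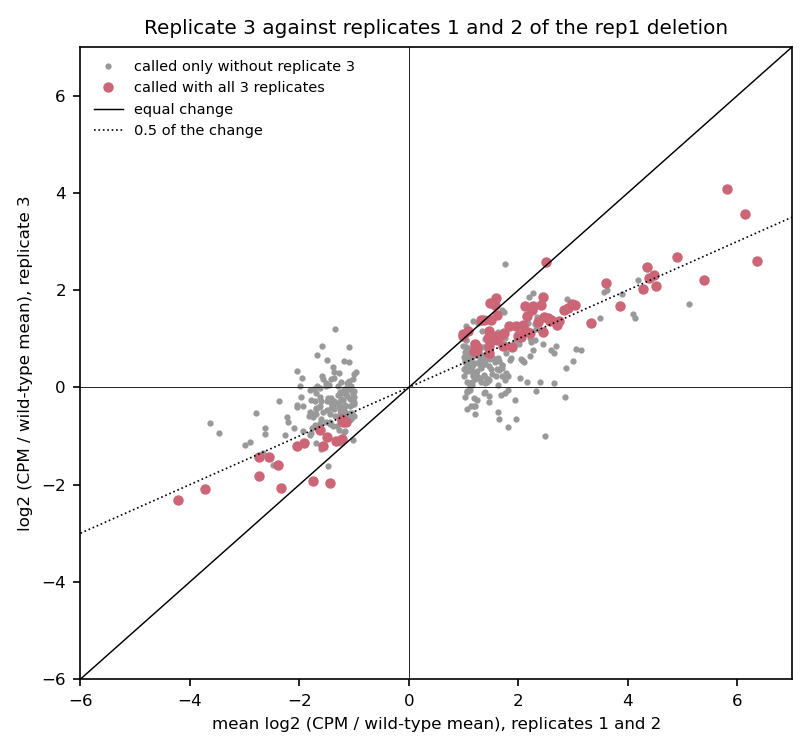
Log2 ratio to the wild-type mean in replicate 3 (y axis) against the mean of replicates 1 and 2 (x axis), for genes called with all libraries (red) and genes called only without replicate 3 (grey); the solid line marks equal change and the dotted line 0.5 of it. Most red points lie between the lines or near the dotted line (median ratio 0.591 for higher genes), and grey points spread across 0 on the y axis.

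A small number of genes moved by about the same amount in all 3 libraries labelled Yl*rep1*Δ. Yl*PCK1* (YALI0C16995), the phosphoenolpyruvate carboxykinase that opens gluconeogenesis, had 995, 1145 and 1008 CPM in the wild type and 3212, 3081 and 3412 CPM in replicates 1, 2 and 3. Its log2 fold change was 1.60 (SE 0.13, adjusted p = 0.00964), and it was 1.55 (adjusted p = 0.00177) without replicate 3, the highest of the 6. The glucose transporter-like gene YALI0B01342 had 36.6, 39.6 and 41.8 CPM in the wild type and 222, 223 and 235 CPM in the Yl*rep1*Δ-labelled libraries (log2 fold change 2.51, SE 0.12, adjusted p = 0.000438). This was the lowest adjusted p of the comparison, from libraries within 1.06-fold of each other, and the log2 fold change was 2.47 without replicate 3. YALI0E00748, weakly similar to the low-affinity zinc transporter Zrt2 of *S. cerevisiae*, went from 21.5, 25.4 and 22.6 CPM to 75.8, 64.7 and 82.6 CPM (log2 fold change 1.66, adjusted p = 0.00964). Among the falls of this kind was Yl*CTT1* (YALI0E34749), a cytosolic catalase, with 541, 560.0 and 562 CPM in the wild type, 257, 219.9 and 264 CPM in the Yl*rep1*Δ-labelled libraries and 417 to 424 CPM with the vector (a log2 fold change of −1.19, adjusted p = 0.0175). YALI0C12100, which has no similarity but is described as an amino acid transporter, had 13.9, 11.8 and 11.1 CPM in the wild type and 2.39, 2.50 and 2.95 CPM in the Yl*rep1*Δ-labelled libraries (log2 fold change −2.25, adjusted p = 0.00964). In these 5 genes the wild-type and Yl*rep1*Δ-labelled libraries were well apart and replicate 3 stood with replicates 1 and 2. They were grouped for this evenness after their values were seen. In 7 of the 84 called genes the highest Yl*rep1*Δ-labelled library was within 1.24-fold of the lowest, and in YALI0E00748 it was 1.28 times the lowest.

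Other called genes were carried by replicates 1 and 2. The Opt2-like oligopeptide transporter gene YALI0A00110 had 65.1, 149 and 7.20 CPM in the Yl*rep1*Δ-labelled libraries, against 0.746 to 1.54 CPM in the wild type. The lipase gene *LIP8* (YALI0B09361) had 129, 132 and 14.3 CPM, against 1.80 to 4.56 CPM. Both groups stayed apart, yet replicate 3 stood 20.6-fold below replicate 2 in the first gene. Without replicate 3 the log2 fold changes were 6.45 and 5.35 (adjusted p = 0.00177 for each). Among genes with no similarity to any described protein, YALI0C23518 had 25.9, 27.4 and 7.26 CPM against 1.13 to 1.54 CPM, and YALI0D17292 had 23.8, 11.0 and 3.63 CPM against 0.513 to 0.954 CPM. Their log2 fold changes were 3.92 (standard error 0.53, adjusted p = 0.0287) and 4.11 (standard error 0.72, adjusted p = 0.0444).

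**Figure D4:**
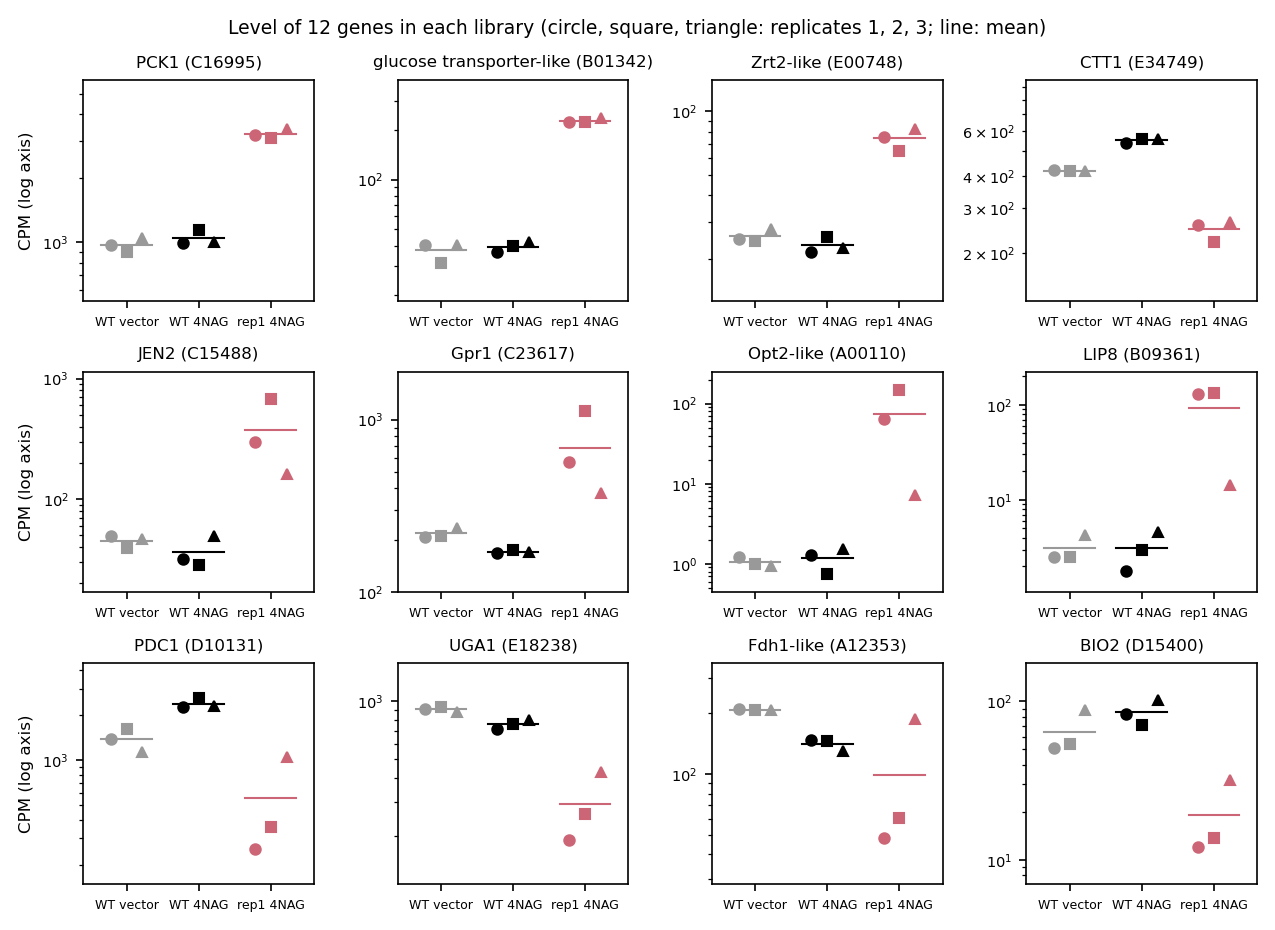
CPM on a log axis (y axis) of 12 genes in wild type with vector (grey), wild type with 4NAG (black) and the libraries labelled Yl*rep1*Δ (red); circles, squares and triangles are replicates 1, 2 and 3 and lines are group means. The top row holds genes in which the 3 Yl*rep1*Δ-labelled libraries stood together, such as Yl*PCK1* at 3081 to 3412 CPM; in the other rows the Yl*rep1*Δ-labelled libraries spread, and the triangle lies nearest to the wild type in each, as for *LIP8* at 14.3 CPM.

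For pathways, 188 genes other than the transcription factor and cell wall genes that the study listed were placed in 21 classes by their descriptions, and 184 of them were tested. The descriptions cover only genes that the study had itself picked on these samples, from this comparison or from that of Yl*ngs1*Δ with the same wild-type libraries, and 5459 of the genes tested have none. How many members of a class moved is therefore not independent evidence of its direction, and cannot be read against the background shares; nor can its median log2 fold change be read against that of all genes, 0.01. In all, 26 of the 184 were higher and 11 lower, and 84 were higher and 52 lower without replicate 3. The counts were 45 and 27 without replicate 1, and 17 and 3 without replicate 2. By class, only the counts without replicate 3 are given below. Of the other called genes, 11 are on the study's lists of transcription factor and cell wall genes and are not described here, and 27 higher and 9 lower genes belong to no class.

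**Figure D5:**
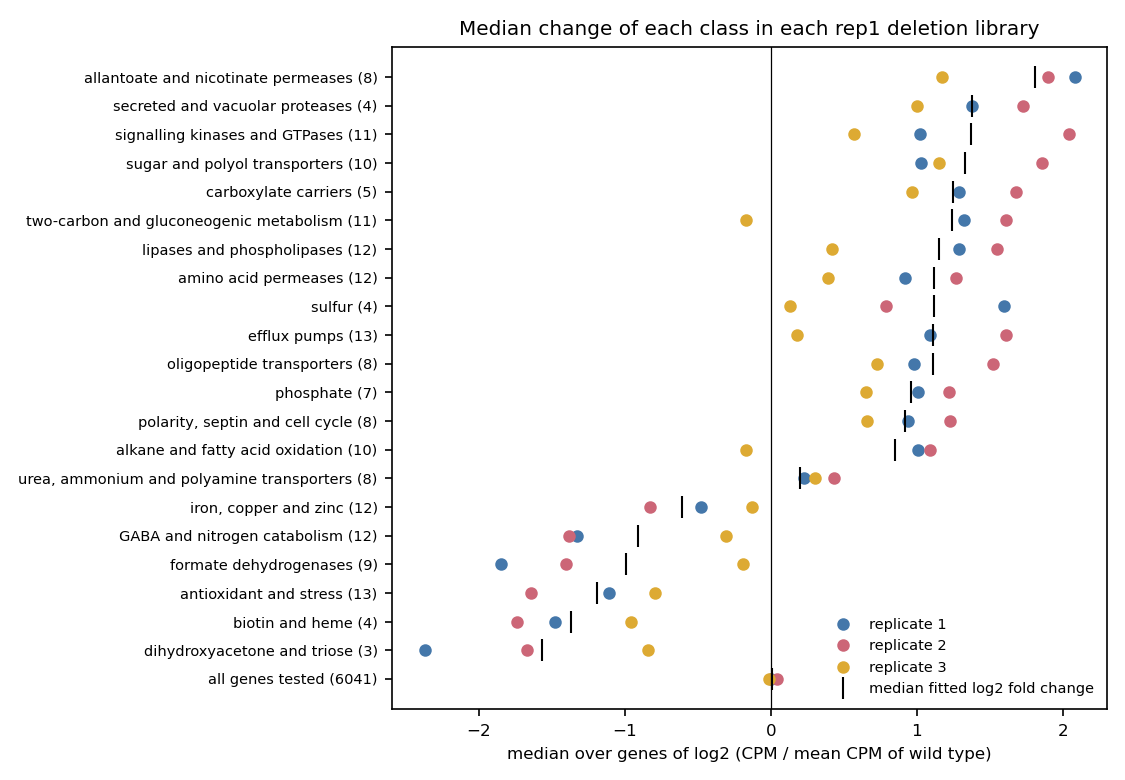
Median over each class of the log2 ratio to the wild-type mean CPM (x axis) in replicates 1, 2 and 3 of the libraries labelled Yl*rep1*Δ (blue, red, yellow), with the median fitted log2 fold change as a black bar and the number of genes tested in brackets. Replicate 3 lies nearest to 0 in most classes, at −0.19 for the formate dehydrogenases where replicates 1 and 2 lie at −1.85 and −1.40, and all genes tested lie at 0.00, 0.04 and −0.01.

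Genes for the uptake of peptides, amino acids and related nitrogen sources mostly had positive values. Among 8 oligopeptide transporter genes tested all had positive log2 fold changes (median 1.11), and 1 was higher, YALI0A00110 (log2 fold change 5.92, SE 1.08, adjusted p = 0.0478). A second, YALI0F09691, had 9.40, 17.8 and 1.97 CPM against 0.361 to 1.06 CPM and an adjusted p of 0.0618. YALI0C18491 had 27.6, 40.5 and 34.8 CPM against 16.3 to 20.6 CPM (adjusted p = 0.0610). These genes are all described as similar to Opt2, so reads could be shared between copies, and the treatment of such reads in counting is not stated. Yl*OPT2* (YALI0F30041) had 29.5, 22.6 and 10.7 CPM against 8.57 to 11.0 CPM, with replicate 3 inside the wild-type range. Without replicate 3, 3 of the 8 were higher.

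Among 12 amino acid permease genes, 3 were higher and 1 lower. The Mup1-like methionine permease gene YALI0F25795 had 276, 345 and 203 CPM against 89.2 to 108 CPM (log2 fold change 1.45, SE 0.20, adjusted p = 0.0287). Yl*AGP3* (YALI0E20713), a low-affinity permease, had 156, 197 and 142 CPM against 74.6 to 79.2 CPM (log2 fold change 1.09, adjusted p = 0.0255). The Put4-like proline permease gene YALI0D15422 had 9.12, 20.5 and 5.66 CPM against 1.44 to 2.07 CPM (log2 fold change 2.66, SE 0.49, adjusted p = 0.0478). The groups did not overlap in any of the 3 genes. The 2 genes named Yl*GAP1* for a general amino acid permease had values of opposite sign: YALI0B19492 had 43.6, 198 and 30.5 CPM against 5.41 to 8.69 CPM, and YALI0C17237 had 89.0, 127 and 318 CPM against 327 to 361 CPM. Neither passed the test (adjusted p = 0.0578 and 0.230), and without replicate 3 the first was higher (log2 fold change 3.95) and the second lower (−1.71). The Dip5-like gene YALI0C00451, for acidic amino acids, had 287, 713 and 438 CPM against 160.3 to 169 CPM and an adjusted p of 0.0557. Without replicate 3 the class had 7 higher and 3 lower genes.

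Of 8 genes like the allantoate and nicotinate permeases Dal5, Seo1 and Tna1, 1 was higher and 7 had positive log2 fold changes (median 1.81). The called gene, YALI0A09383, had 187, 469 and 189 CPM against 58.5 to 67.7 CPM in the wild type with 4NAG and 73.9 to 102 CPM with the vector (log2 fold change 2.15, SE 0.36, adjusted p = 0.0439). Here replicate 2 stood alone and replicates 1 and 3 were alike. The Seo1-like gene YALI0F13607 had 841, 402 and 387 CPM against 194 to 219 CPM (adjusted p = 0.0666), with replicate 1 as the highest. Without replicate 3, 6 of the 8 were higher. The 8 urea, ammonium and polyamine transporter genes were split, with 4 positive and 4 negative values and a median of 0.20. The Tpo1-like polyamine transporter gene YALI0E21241 was the 1 called, at 77.6, 70.4 and 38.3 CPM against 17.7 to 19.3 CPM (log2 fold change 1.72, adjusted p = 0.0358). Yl*DUR3* (YALI0B04202), for urea uptake, had 15.1, 7.04 and 29.0 CPM against 42.0 to 51.0 CPM (log2 fold change −1.49, adjusted p = 0.115). Other Tpo1-like genes differed in sign, with Yl*TPO1* (YALI0F08063) at 79.8, 49.8 and 43.1 CPM against 22.2 to 28.8 CPM (adjusted p = 0.0623) and YALI0A15576 at 29.1, 19.2 and 66.8 CPM against 58.9 to 71.9 CPM (adjusted p = 0.299). Without replicate 3 this class had 4 higher and 3 lower genes.

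All 10 sugar and polyol transporter genes had positive log2 fold changes, with a median of 1.33. In all 10 the Yl*rep1*Δ-labelled libraries lay above the wild type, as they did in 16.9% of all genes tested. The study had picked these 10 genes on these samples. Their shared direction is therefore not independent evidence and cannot be read against that share. Beside YALI0B01342, 3 were higher. YALI0F00462, similar to the aquaglyceroporin Aqy3 of *S. cerevisiae*, had 1210.1, 1919.7 and 942 CPM against 367 to 416 CPM (log2 fold change 1.77, SE 0.25, adjusted p = 0.0348). A related channel gene, YALI0E05665, had 107, 169.9 and 145 CPM against 63.5 to 73.0 CPM (log2 fold change 1.02, adjusted p = 0.0439). YALI0F18084, similar to a myo-inositol transporter of *Neurospora crassa*, had 86.6, 187 and 128 CPM against 42.5 to 53.5 CPM (log2 fold change 1.42, adjusted p = 0.0483). In the last pair replicate 1, not replicate 3, was nearest to the wild type. Among those not called, the Stl1-like glycerol symporter gene YALI0D01111 had 20.5, 70.3 and 30.0 CPM against 7.84 to 8.48 CPM (adjusted p = 0.0513), and the second *K. lactis*-type glucose transporter gene, YALI0E23287, had 610.5, 1318 and 1030.3 CPM against 461 to 483 CPM (adjusted p = 0.0809). Without replicate 3, 7 of the 10 were higher.

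Carboxylate carriers move organic acids across the plasma membrane or into mitochondria, and all 5 genes had positive log2 fold changes (0.90 to 3.33). Yl*JEN2* (YALI0C15488), for dicarboxylic acids, had 297, 674 and 162 CPM against 28.7 to 49.2 CPM (log2 fold change 3.33, SE 0.52, adjusted p = 0.0388), and 3.69 without replicate 3 (adjusted p = 0.00359). Yl*JEN1* (YALI0C21406), for monocarboxylic acids, had 4.96, 6.50 and 6.71 CPM against 1.60 to 2.70 CPM (log2 fold change 1.56, adjusted p = 0.0483). Replicate 3 was the lowest Yl*rep1*Δ-labelled library for the first gene and the highest for the second. The mitochondrial carriers Yl*YHM2* (YALI0B10736) and Yl*DIC1* (YALI0B03344) had adjusted p-values of 0.0568 and 0.0578, and all 5 genes were higher without replicate 3.

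In acetate and gluconeogenic metabolism 3 of 11 genes were higher and 0 lower by edgeR, and 4 had negative values; at an unadjusted p 4 were lower, as were 4 by DESeq2 and 3 by limma. Beside Yl*PCK1*, these were a *GPR1*-type gene and Yl*AAT2*. YALI0C23617, described as the glyoxylate pathway regulator Gpr1 and linked to growth on acetate, had 565, 1118 and 376 CPM against 169.7 to 177 CPM (log2 fold change 1.96, SE 0.36, adjusted p = 0.0481). Yl*AAT2* (YALI0F29337), a cytosolic aspartate aminotransferase, had 947, 1160.0 and 621 CPM against 373 to 386 CPM (log2 fold change 1.24, adjusted p = 0.0444). The groups were apart in both, with replicate 2 the highest and replicate 3 the lowest Yl*rep1*Δ-labelled library. A second *GPR1*-type gene, YALI0C23298, had 53.6, 124 and 7.69 CPM against 1.13 to 3.60 CPM and an adjusted p of 0.0581.

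Further genes of this class differed widely from the wild type in replicates 1 and 2 and did not pass edgeR's test with all libraries, while DESeq2 called each of the 4 given next. Yl*PDC1* (YALI0D10131), the pyruvate decarboxylase that leads from pyruvate to acetaldehyde, had 254, 356 and 1057 CPM, against 2258, 2619.6 and 2282 CPM in the wild type with 4NAG and 1139 to 1617 CPM with the vector. The groups did not overlap, but replicate 3 stood at 44.3% of the wild-type mean where replicates 1 and 2 stood at 10.6% and 14.9% (log2 fold change −2.12, SE 0.52, adjusted p = 0.0776), and it was below every vector library only by a narrow margin. Alcohol dehydrogenase 3 (YALI0A16379) had 1379, 1955 and 299 CPM against 160.0 to 256 CPM (adjusted p = 0.0739). The malic enzyme gene YALI0E18634 had 164, 177 and 456 CPM against 533 to 605 CPM in the wild type with 4NAG and 338 to 425 CPM with the vector (adjusted p = 0.159). Yl*GPH1* (YALI0F04169), for glycogen breakdown, had 129, 197 and 383 CPM against 479 to 586 CPM in the wild type with 4NAG (adjusted p = 0.130). With the vector it had 244 to 307 CPM, so that replicate 3 was above every vector library. Without replicate 3, 7 genes of the class were higher and 4 lower, with Yl*PDC1* at a log2 fold change of −3.01 (adjusted p = 0.00177). Genes that handle dihydroxyacetone and triose phosphates had negative values in 3 of 3 (median −1.57). With all libraries edgeR called 0 of them, against 3 lower at an unadjusted p, 3 by DESeq2 and 2 by limma, and without replicate 3 edgeR called 3 lower. The dihydroxyacetone kinase-like gene YALI0F01606 had 3.93, 8.83 and 14.3 CPM against 26.2 to 31.5 CPM (adjusted p = 0.0776), and the triosephosphate isomerase-like YALI0F01584 had 4.84, 6.33 and 13.3 CPM against 22.3 to 24.9 CPM (adjusted p = 0.0676). With YALI0F01628 and YALI0F01650 they are 4 identifiers that follow each other in the tables, and all 4 had negative log2 fold changes.

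The genes placed in the class of GABA and nitrogen catabolism were all picked by the study on these samples. All 12 log2 fold changes were negative (median −0.91), 3 genes were lower, and 11 were lower without replicate 3. The smallest change was −0.05, in YALI0B16214. This gene had 19.2, 45.8 and 153 CPM against 71.7 to 79.7 CPM, so that replicate 3 was above every wild-type library. Yl*AMD2* (YALI0D22110), a putative amidase, had 48.9, 51.1 and 72.4 CPM against 113 to 123 CPM (log2 fold change −1.05, SE 0.18, adjusted p = 0.0439). YALI0E20735, a putative D-amino acid oxidase like Ifg1 of *C. albicans*, had 74.6, 91.7 and 122 CPM against 187 to 204 CPM (log2 fold change −1.03, adjusted p = 0.0481). YALI0A02607, similar to a bacterial N-carbamyl-L-cysteine amidohydrolase, had 8.66, 6.58 and 12.9 CPM against 26.6 to 32.4 CPM (log2 fold change −1.64, adjusted p = 0.0388). All 3 lay below every wild-type library, with replicate 3 nearest to them.

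The GABA shunt turns glutamate into succinate by way of GABA. Its transaminase Yl*UGA1* (YALI0E18238) had 191, 260.2 and 429.7 CPM against 722, 763 and 800.4 CPM in the wild type with 4NAG and 884 to 933 CPM with the vector (log2 fold change −1.39, SE 0.29, adjusted p = 0.0581). Yl*UGA2* (YALI0F26191), the next enzyme, had 89.1, 96.3 and 132 CPM against 184 to 193 CPM (adjusted p = 0.0566). Glutamate decarboxylase (YALI0F08415) had 275, 231 and 502 CPM against 568 to 645 CPM (adjusted p = 0.145). By edgeR none of these 3 passed with all libraries, while DESeq2 called Yl*UGA1* lower (adjusted p = 0.000116); all 3 were lower by edgeR without replicate 3, with log2 fold changes of −1.79, −1.06 and −1.27. The Put2-like gene YALI0B09647, of proline breakdown, had 371, 459.6 and 900.3 CPM against 834 to 959 CPM, so that replicate 3 fell inside the wild-type range. Summed over the class, the genes had 1425, 1510 and 2954 CPM in replicates 1, 2 and 3 and 3547 to 3740 CPM in the wild type.

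Formate dehydrogenase oxidizes formate to carbon dioxide, and *Y. lipolytica* has a family of such genes. All 9 had negative log2 fold changes (median −0.99), from −1.78 to −0.36. With all libraries edgeR called 0, against 3 lower at an unadjusted p, 2 by DESeq2 and 1 by limma. In replicates 1 and 2 the summed level was 80.4 and 96.9 CPM, in replicate 3 it was 301 CPM, and in the wild type it was 253 to 274 CPM. Much of that sum came from YALI0A12353, and the other 8 genes summed to 113 CPM in replicate 3, 32.1 and 36.7 CPM in replicates 1 and 2 and 124 to 127 CPM in the wild type. Without replicate 3, 8 of the 9 were lower. YALI0A12353 had 48.3, 60.2 and 187 CPM against 129.5 to 147 CPM in the wild type with 4NAG and 207 to 209.6 CPM with the vector. Yl*FDH1* (YALI0F28765) had 10.6, 10.3 and 34.0 CPM against 30.4 to 40.0 CPM. In YALI0F15983 replicate 3 was instead as low as the others, with 1.48, 1.63 and 1.66 CPM against 3.35 to 4.08 CPM (adjusted p = 0.0573). The copies resemble each other, and reads could have been split among them.

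In the class of alkane and fatty acid oxidation, 1 of 10 genes was higher and 2 were lower. *ALK1* (YALI0E25982), a cytochrome P450 that hydroxylates alkanes, had 60.7, 111 and 41.8 CPM against 17.4 to 20.3 CPM (log2 fold change 1.89, SE 0.33, adjusted p = 0.0444), and its log2 fold change was 2.15 without replicate 3. YALI0F02211, weakly similar to a 2,4-dienoyl-CoA reductase, had 7.86, 4.79 and 19.0 CPM against 71.3, 86.7 and 86.1 CPM in the wild type with 4NAG (log2 fold change −2.97, SE 0.48, adjusted p = 0.0388). With the vector the same gene had 27.8 to 38.6 CPM, so its level also differed between the wild-type groups. YALI0F23749, an acyl-CoA dehydrogenase close to glutaryl-CoA dehydrogenase of *N. crassa*, had 60.3, 72.6 and 111 CPM against 191 to 217 CPM (log2 fold change −1.34, adjusted p = 0.0439). The Fat1-like fatty acid transporter gene YALI0E16016 had 627, 705 and 579 CPM against 299.9 to 359 CPM; its adjusted p was 0.0318 and its log2 fold change of 0.95 lay under the threshold. The Pcs60-like gene YALI0B07755, for oxalyl-CoA synthetase, had 557, 297 and 186 CPM against 133 to 159.8 CPM (adjusted p = 0.107), highest in replicate 1. Without replicate 3 the class had 5 higher and 2 lower genes.

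The class of lipases and phospholipases also holds a gene like a glycerophosphoinositol permease, which is a transporter. Of its 12 genes tested, 3 were higher, the permease-like gene among them, and 10 had positive values (median 1.15). For *LIP8*, a triacylglycerol lipase, the values above gave 4.85 on the log2 scale, with a standard error of 0.85 and an adjusted p of 0.0458. YALI0E31581, similar to the secreted sphingomyelinase Asm3 of *C. albicans*, had 86.0, 71.7 and 36.1 CPM against 11.6 to 15.8 CPM (log2 fold change 2.23, adjusted p = 0.0348). YALI0C16951, similar to the glycerophosphoinositol permease Git2, had 54.5, 82.8 and 27.0 CPM against 11.6 to 13.0 CPM (log2 fold change 2.12, adjusted p = 0.0439). The 3 Yl*rep1*Δ-labelled libraries were above the wild type in each, and replicate 3 was the lowest. The Atg15-like phospholipase gene YALI0F06358 had 159.7, 50.6 and 61.7 CPM against 27.6 to 35.9 CPM (adjusted p = 0.104), a difference carried by replicate 1. Without replicate 3, 7 genes were higher and 1 lower.

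Genes for biotin and heme synthesis had negative values in 4 of 4 (median −1.37), and 2 were lower. Yl*BIO2* (YALI0D15400), the biotin synthase, had 12.0, 13.7 and 31.8 CPM against 83.5, 70.8 and 103 CPM (log2 fold change −2.18, SE 0.39, adjusted p = 0.0459), and its log2 fold change was −2.77 without replicate 3. YALI0E17545, weakly similar to 5-aminolevulinate synthase, had 8.89, 6.71 and 13.9 CPM against 28.2 to 35.1 CPM (log2 fold change −1.73, adjusted p = 0.0388). The other 5-aminolevulinate synthase gene, YALI0C06083, which catalyses the first step of heme synthesis, had 935, 954 and 1860.1 CPM against 1726 to 1809.7 CPM (adjusted p = 0.305). In that gene replicate 3 was above every wild-type library, whereas in the called pair it was below. YALI0E21549, weakly similar to a transaminase of the biotin pathway, had an adjusted p of 0.0647 by edgeR with all libraries, while DESeq2 with all libraries (adjusted p = 0.00202) and edgeR without replicate 3 (adjusted p = 0.0212) called it lower.

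Metal genes were mixed, with 1 of 12 higher, 1 lower and a median of −0.61. The Fre3-like ferric reductase gene YALI0B13090 had 1.65, 0.625 and 3.81 CPM against 16.0 to 20.6 CPM (log2 fold change −3.28, SE 0.55, adjusted p = 0.0439), the largest fall among the genes called. The Zrt2-like gene rose, as given above. Yl*SMF2* (YALI0D26818), a manganese transporter, had 463, 547 and 472 CPM against 266 to 299 CPM (log2 fold change 0.78, adjusted p = 0.0388), which is less than 2-fold. The metallothionein gene *MTP2* (YALI0C22394) had 259, 242 and 326 CPM against 400.3 to 449 CPM (adjusted p = 0.0809). Without replicate 3 the class had 2 higher and 4 lower genes.

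Among 13 genes for antioxidant defence and stress, 12 had negative log2 fold changes (median −1.19) and 2 were lower. Beside Yl*CTT1*, this was Yl*SOD2* (YALI0C16621), a mitochondrial superoxide dismutase, with 0.456, 0.667 and 1.05 CPM against 2.78, 3.17 and 5.09 CPM (log2 fold change −2.37, SE 0.42, adjusted p = 0.0459). A second catalase gene, YALI0E34265, had 14.1, 57.2 and 209 CPM against 315 to 398 CPM in the wild type with 4NAG and 191 to 273 CPM with the vector (log2 fold change −1.92, SE 0.82, adjusted p = 0.204). The 2 catalase genes thus differed by library: Yl*CTT1* was even across the Yl*rep1*Δ-labelled libraries, and the other ran from 4.02% to 59.8% of the wild-type mean. The Hsp31-like methylglyoxalase gene YALI0F00682 had 1844, 815 and 897 CPM against 2636 to 3288 CPM in the wild type with 4NAG (adjusted p = 0.0715). With the vector it had 1798 to 2050 CPM, a range that holds replicate 1. In this gene replicate 1 was nearest to the wild type and replicate 3 stood with replicate 2. The Ssa3-like chaperone gene YALI0D22352 had 814, 612 and 1066 CPM against 1615 to 2088 CPM in the wild type with 4NAG and 891 to 1126 CPM with the vector (adjusted p = 0.0566). Without replicate 3, 8 were lower and 1 higher.

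Sulfur, phosphate and efflux genes gave few calls. Of 4 sulfur genes 1 was higher, Yl*JLP1* (YALI0D17622), a sulfonate dioxygenase, at 32.9, 28.0 and 32.0 CPM against 11.2 to 16.7 CPM (log2 fold change 1.09, adjusted p = 0.0439). The Met16-like gene YALI0B08140, of sulfate assimilation, had 962, 415 and 262 CPM against 219 to 246 CPM, and the Met30-like regulator gene YALI0B09977 had 238, 100.3 and 63.3 CPM against 56.8 to 61.4 CPM; in both, replicate 1 carried the difference (adjusted p = 0.155 and 0.170). Without replicate 3 the class had 3 higher and 1 lower. Of 7 phosphate genes 0 were called by edgeR with all libraries, while 2 were higher and 1 lower at an unadjusted p and by DESeq2, 0 by limma, and 4 higher and 1 lower without replicate 3. The Pho84-like transporter gene YALI0A15125 had 39.7, 29.2 and 22.9 CPM against 14.0 to 17.0 CPM, and the Vtc5-like gene YALI0D13156, of polyphosphate storage, had 125, 145 and 101 CPM against 58.2 to 64.9 CPM (adjusted p = 0.0666 and 0.0358, the second under 2-fold). Of 13 efflux pump genes 0 were called by edgeR with all libraries, 7 were higher and 1 lower at an unadjusted p, 6 higher and 1 lower by DESeq2 and 1 higher by limma, and 7 were higher without replicate 3. The major facilitator gene Yl*FGR2* (YALI0B18986) had 181, 440.4 and 322 CPM against 123 to 126 CPM, and the ABC transporter gene Yl*YBT1* (YALI0E14234) had 191, 264 and 110.2 CPM against 94.6 to 102 CPM (adjusted p = 0.0631 and 0.112).

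Signalling and polarity genes mostly had positive values. Of 11 genes for kinases, GTPases and their partners 2 were higher (median 1.37). YALI0B08558, a serine/threonine protein kinase gene, had 93.5, 129 and 80.1 CPM against 23.3 to 26.8 CPM (log2 fold change 1.97, SE 0.18, adjusted p = 0.00969). It lay above every wild-type library in all 3 Yl*rep1*Δ-labelled libraries. The Kin4-like kinase gene YALI0C21758 had 78.7, 178 and 56.7 CPM against 38.9 to 40.8 CPM, and the Opy2-like membrane anchor gene YALI0E08888 had 73.4, 124 and 78.9 CPM against 40.2 to 48.3 CPM (adjusted p = 0.0997 and 0.0578). Without replicate 3, 8 of the 11 were higher.

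Of 8 polarity, septin and cell cycle genes all had positive values (median 0.92) and 1 was higher, YALI0E07898, like the cyclin Clg1, at 183, 265 and 177 CPM against 74.4 to 86.0 CPM (log2 fold change 1.36, SE 0.17, adjusted p = 0.0255). The Mih1-like phosphatase gene YALI0C06460 had 121, 219 and 161 CPM against 85.1 to 99.0 CPM (adjusted p = 0.0823), and 5 were higher without replicate 3. Of 4 secreted and vacuolar protease genes 2 were higher. YALI0A08360, weakly similar to the alkaline extracellular protease, had 9.35, 14.6 and 5.04 CPM against 1.65 to 2.44 CPM, and the carboxypeptidase Y-like gene YALI0D09042 had 7.18, 10.8 and 5.97 CPM against 1.86 to 3.07 CPM (log2 fold changes 2.31 and 1.66, adjusted p = 0.0459 and 0.0483). The groups did not overlap in either. The Rrt12-like subtilisin gene YALI0F24453 went the other way, at 4.90, 2.83 and 3.08 CPM against 6.60 to 8.76 CPM (adjusted p = 0.0846), and 3 of the 4 were higher without replicate 3.

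Of the 64 higher genes 21 (32.8%), and of the 20 lower genes 2 (10.0%), are described as having no similarity, against 23.4% of the 582 described genes tested. YALI0C04389, an integral membrane protein of this kind, had 173, 289.8 and 85.9 CPM against 31.9 to 34.6 CPM (log2 fold change 2.42, SE 0.39, adjusted p = 0.0388). YALI0B05434, with a transmembrane domain, had 25.4, 26.9 and 6.52 CPM against 2.06 to 3.55 CPM (2.88, SE 0.54, adjusted p = 0.0487). YALI0B00154, also a membrane protein, had 29.4, 58.0 and 17.3 CPM against 5.27 to 6.24 CPM (2.57, adjusted p = 0.0388), and YALI0C00869 had 12.1, 17.3 and 5.41 CPM against 1.80 to 2.80 CPM (2.35, adjusted p = 0.0479). All 4 were lowest in replicate 3 yet above every wild-type library.

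Of the 12 largest falls by the rule for named genes, 5 were outside the classes. The N-acetyltransferase-like gene YALI0F11605 had 29.3 and 52.4 CPM in replicates 1 and 3 and 14.1% of the wild-type mean in replicate 2, against 135 to 152 CPM (log2 fold change −2.08, SE 0.34, adjusted p = 0.0393). YALI0E06589, similar only to another gene of this yeast, had 58.5, 33.0 and 75.5 CPM against 199.5 to 269 CPM and 116 to 140.3 CPM with the vector (−2.06, adjusted p = 0.0358). YALI0C15466, of no similarity, had 7.46, 10.6 and 7.81 CPM against 28.5 to 32.2 CPM (−1.81, adjusted p = 0.00969). In this gene and in YALI0C18029, weakly similar to a carotene dioxygenase, replicate 3 was as far from the wild type as the others, and YALI0C18029 had 10.1, 10.2 and 7.01 CPM against 26.1 to 29.4 CPM (−1.61, adjusted p = 0.0175). YALI0F24937, of unknown function, had 3.19, 2.42 and 3.57 CPM against 7.06 to 9.43 CPM (−1.46, adjusted p = 0.0439). Yl*ERG3* is given above; it fell outside the rule and was named for its overlap with the vector libraries, after its values were seen (log2 fold change −1.04, adjusted p = 0.0478).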

How the data were processed

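The series holds 12 RNA-Seq libraries, 3 for each strain and plasmid. The authors deposited raw read counts per gene and FPKM values (scaled for gene length and depth by the authors); the counts were used and the FPKM values were not. Per the submitters' processing notes, the tools were TopHat2 (version 2.1.1) and Cufflinks (version 2.2.1), with mm10, a mouse build, as the genome named. The yeast build, the handling of shared reads and the use of strand were not stated in what was read, and shared or antisense reads could shift counts of similar genes. Tables were joined by gene identifier, with 0 for a missing gene (24 genes, with at most 20 counts elsewhere). Totals were 15667204 to 22650213 in the 12 libraries of the series. edgeR 4.0.16 (R 4.3.3) was run with filterByExpr, TMM and the quasi-likelihood test on the 6 libraries compared. Each SE was computed back from that test, as the absolute log2 fold change over the square root of its F statistic. A gene was called at a Benjamini-Hochberg adjusted p under 0.05 over all genes tested and at least 2-fold. Changes by library are log2 ratios of CPM to the wild-type mean; distances use a pseudocount of 1 CPM. The script was tested on simulated data. Named genes were the GlcNAc genes and regulators, the 12 largest rises and falls with a mean count of at least 20, and, of each class, up to 6 called members and the 2 of highest CPM; others were named after their values were seen. A called gene of the signalling class is not reported here. Classes were assigned by hand from gene descriptions in the study's supplement, since the planned annotation lists could not be built: 0 identifiers matched the reference given. The members and lists were chosen with earlier results of these data known. The samples with Yl*ngs1*Δ took no part in the main test. Their distances from the Yl*rep1*Δ-labelled libraries are given above. These samples entered the alternative fit of all 12 libraries and the TMM scaling of the CPM values given here, which was set on all 12. The changes by library and the distances rest on that scaling. Some class members were described by the study only from its comparison of Yl*ngs1*Δ. Alternatives were DESeq2 1.42.0, limma 3.58.1 (voom with sample weights), other filters, scalings and thresholds, a replicate block, and leaving out each library.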

Additional observations from a re-analysis of the deposited data

How the results depend on the processing

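Counts of genes higher and lower in the libraries labelled Yl*rep1*Δ (64 and 20) became 219 and 87 with DESeq2, 140 and 73 with limma, 166 and 49 with all 12 libraries in 1 fit, 244 and 110 at an unadjusted p, and 87 and 37 with no fold threshold. DESeq2 size factors, no filter and a mean count of at least 10 gave 64 to 68 higher and 19 to 20 lower. Leaving out 1 library gave 1 to 269 higher and 0 to 163 lower, and the lowest counts came without any of wild-type replicates 1, 2 or 3. The Yl*REP1* log2 fold change ranged from −2.34 to −0.88 when 1 library was left out and was −1.78 (adjusted p = 0.0356) with limma and −2.34 (adjusted p = 0.00584) without replicate 3. Of 85 genes chosen by the naming rule, 0 changed sign under any alternative. Genes named after their values were seen were not part of this count. Among these, YALI0B16214 had log2 ratios to the wild-type mean of −1.96, −0.7 and 1.04 in Yl*rep1*Δ-labelled replicates 1, 2 and 3.

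Deviations of same-numbered samples from their group means correlated at 0.033, −0.001 and −0.257, which gave no sign of a pairing by replicate number. With 3 samples per group, each group centred on its own mean, these values cannot settle whether the samples were paired. With a replicate block, 74 genes were higher and 27 lower, sharing 58 and 16 with the calls without it, and Yl*REP1* was at −1.69 (adjusted p = 0.0989). Not every sample correlated best with its own number.

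Precision is limited by the number of samples and by the spread among the mutant libraries; whether replicate 3 holds cells with Yl*REP1* was not tested.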
